A study of Mus musculus with 24 samples.

Results

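Matrix metalloproteinases, their tissue inhibitors (TIMPs) and lysyl oxidases set how extracellular matrix is cut and cross-linked. In the table of 55487 genes measured in kidneys of mice with X-linked Alport syndrome, 9 genes with the symbols Mmp2, Mmp7, Mmp14, Timp1, Timp2, Timp3, Lox, Loxl1 and Loxl2 were taken by symbol, and all 9 were among the 18339 genes that passed the filter on low counts. Matrix metalloproteinases are zinc-dependent endopeptidases made as inactive proenzymes. The membrane-anchored MMP14 activates proMMP2, a gelatinase that also cuts type IV collagen, with TIMP2 as the bridge between them at the cell surface, so TIMP2 is both a partner in that activation and an inhibitor. MMP7, or matrilysin, is made by epithelial cells, and in injured kidneys by tubule cells. TIMP1 is a secreted inhibitor induced in injured and fibrotic tissue, and TIMP3 is bound to the matrix and also inhibits ADAM proteases. LOX, LOXL1 and LOXL2 are copper-dependent enzymes that oxidise lysine residues of collagens and elastin and so start their cross-linking, LOXL1 mainly on elastic fibres and LOXL2 also on type IV collagen of basement membranes.

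The 24 kidneys came from male mice on the B6 background, 15 weeks old, that all had X-linked Alport syndrome (XLAS), in which mutation of Col4a5 removes a type IV collagen chain from the glomerular basement membrane. For Nbl1, whose secreted product binds and blocks bone morphogenetic proteins, 13 of them were heterozygous (HET) and 11 were wild type (WT), and the study asked whether a partial loss of Nbl1 alters the disease. Batch 1 held 6 HET and 6 WT mice and batch 2 held 7 HET and 5 WT mice. The labels give neither the Nbl1 nor the Col4a5 allele. Mice without Alport syndrome were not analysed here, so no value below compares diseased with healthy kidney.

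Libraries of batch 1 held 29551543 to 33020033 expected counts each, and those of batch 2 held 36380502 to 50746817. Markers of kidney tubule (7 of 7) and podocyte (6 of 6) were detected. Nbl1 was at 3.86 to 9.24 CPM (reads of a gene scaled to the depth of its library) in HET and 3.62 to 7.78 in WT of batch 1, and at 4.22 to 7.82 in HET and 7.0 to 15.1 in WT of batch 2. In batch 1, 3 libraries went against their labels. The library labelled HET replicate 6 had 9.24 CPM of Nbl1 and 0 counts of its neighbour Htr6, where the other HET libraries of that batch had 3.86 to 4.89 CPM and 8 to 39 counts. The libraries labelled WT replicates 1 and 2 had 5.41 and 3.62 CPM and 26 and 14 Htr6 counts, where the other WT libraries of that batch had 7.0 to 7.78 CPM and at most 1 count. These are called the 3 doubted libraries, were kept as labelled, and were left out in an alternative chosen after seeing the data. HET replicate 8 carries one animal number in its title and another in its library name, and its values were taken by the latter.

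The bases before the start of Timp1, Mmp14 and Mmp7 are shown because the level of Timp1 moved with that of each of the other 2 across the kidneys (RefSeq, GRCm38.p6, 250 bases upstream of the start, 5′ to 3′). Capitals mark 3 motifs searched on both strands: TGANTCA, the site of AP-1 factors, GGGCGG, the GC box (CCGCCC on the other strand), and TATAAA, the TATA box. The Mmp7 stretch is chr9:7691840-7692089, that of Mmp14 is chr14:54431348-54431597 and that of Timp1 is chrX:20869916-20870165, all on the plus strand.
Mmp7: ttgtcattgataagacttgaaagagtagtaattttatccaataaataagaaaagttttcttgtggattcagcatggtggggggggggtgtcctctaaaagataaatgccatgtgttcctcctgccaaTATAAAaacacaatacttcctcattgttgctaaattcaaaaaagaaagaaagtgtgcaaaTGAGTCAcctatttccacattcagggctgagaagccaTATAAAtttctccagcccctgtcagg
Mmp14: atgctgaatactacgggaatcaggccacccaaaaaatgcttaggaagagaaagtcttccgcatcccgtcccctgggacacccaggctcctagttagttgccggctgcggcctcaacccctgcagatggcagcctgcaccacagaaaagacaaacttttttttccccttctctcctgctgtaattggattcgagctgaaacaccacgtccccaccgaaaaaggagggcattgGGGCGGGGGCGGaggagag
Timp1: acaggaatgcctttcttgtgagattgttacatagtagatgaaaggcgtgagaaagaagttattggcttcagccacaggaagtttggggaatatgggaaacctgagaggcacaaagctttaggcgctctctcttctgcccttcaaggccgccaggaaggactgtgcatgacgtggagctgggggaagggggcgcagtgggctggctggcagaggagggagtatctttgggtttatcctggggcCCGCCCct
Of these, the Mmp7 stretch held 1 AP-1 motif, 63 to 57 bases before its start, and 2 TATA motifs, whose first bases lay 123 and 26 bases before it. A second Mmp7 stretch, before another RefSeq start (chr9:7692091-7692340, not printed), held none of the 3 motifs. Mmp14 held 2 adjoining GC boxes and Timp1 held 1 on the minus strand, 8 to 3 bases before its start. Across 32851 promoter stretches of this length, 6.75% held the AP-1 motif, 32.7% the GC box and 12.4% the TATA motif. The stretches of Timp2 and Timp3, whose levels were also related to that of Timp1, held a GC box each and are not printed. A match describes the letters and is not evidence of binding. The part of these motifs in levels that moved together was not tested.

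On GRCm38, Mmp14 lies on chromosome 14 (54431612 to 54445364, plus strand) and Loxl2 on the same chromosome (69609068 to 69695834, plus strand). Mmp2 lies on chromosome 8 (92827291 to 92853420, plus strand). Chromosome 9 holds Mmp7 (7692090 to 7699585, plus strand) and Loxl1 (58287738 to 58313186, minus strand). Timp1 lies on chromosome X (20870166 to 20874735, plus strand) within the opposite-strand gene Syn1, and Timp3 on chromosome 10 (86300372 to 86349506, plus strand) within the opposite-strand gene Syn3. Timp2 lies on chromosome 11 (118301069 to 118355740, minus strand) and Lox on chromosome 18 (52516067 to 52529867, minus strand). No source used here says whether reads were counted by strand, so reads of such overlapping genes cannot be told apart. Syn1 counts came to 4.23% of those of Timp1 and Syn3 counts to 0.489% of those of Timp3, but the antisense gene Gm27177 held 15.8% of the counts of Loxl2. Expected counts were not whole in all 24 libraries for Loxl2, in 23 for Mmp14 and in 9 for Timp3, and how such values arose is not stated.

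Levels were compared between genes as TPM, a level per transcript length, within a batch, because the TPM of the 2 batches are not on one scale. Timp3 stood far above the rest, with a median of 332 TPM in batch 1 (258 to 381, n = 12) and 663 TPM in batch 2 (579 to 731, n = 12). Timp2 came second, at a median of 11.7 TPM in batch 1 and 32.1 TPM in batch 2, so that the Timp3 median was 28.5 times the Timp2 median in batch 1 and 20.7 times in batch 2. Timp3 made up 94.7% ± 1.24 (SD, n = 24) of the summed TPM of the 3 inhibitors, Timp2 3.91% ± 0.788 and Timp1 1.40% ± 0.497. Among the 3 proteases, Mmp14 took 67.1% ± 2.52 of the summed TPM, Mmp2 29.1% ± 2.65 and Mmp7 3.80% ± 1.57. Among the 3 lysyl oxidases, Loxl1 took 44.6% ± 2.76, Loxl2 34.4% ± 1.95 and Lox 21.0% ± 2.56.

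The middle of the order was not fixed. In batch 1 the medians after Timp2 were 5.18 TPM for Mmp14, 5.08 for Loxl1, 3.97 for Loxl2, 3.57 for Timp1, 2.45 for Lox and 2.17 for Mmp2. Neighbours in that order did not differ beyond their spread for Mmp14 and Loxl1 (Mmp14 higher in 8 of 12 kidneys), Loxl2 and Timp1 (Loxl2 higher in 8 of 12) and Lox and Mmp2 (Lox higher in 7 of 12). In batch 2 the medians were 14.7 TPM for Mmp14, 12.4 for Timp1, 11.5 for Loxl1, 8.73 for Loxl2, 5.98 for Mmp2 and 4.86 for Lox. Timp1 and Loxl1 changed places there within their spread (Timp1 higher in 5 of 12 kidneys), and Mmp2 was above Lox in 11 of 12. Mmp7 was lowest in every kidney, at a median of 0.305 TPM in batch 1 and 0.71 TPM in batch 2, from 4 to 40 expected counts per library, so its values rest on few reads.

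The values of the proteases and Timp1 were spread more widely among mice than those of Timp2, Timp3 or the lysyl oxidases. With the mean of each batch and genotype removed, the SD of log2 CPM was 0.66 for Mmp7, 0.38 for Timp1, 0.27 for Mmp2 and 0.26 for Mmp14. It was 0.19 for Lox, 0.18 for Loxl2, 0.16 for Loxl1, 0.16 for Timp2 and 0.12 for Timp3, against a median of 0.16 over the 18339 genes tested. By this measure Mmp7 was at percentile 97.0 and Timp1 at percentile 80.5 of all genes tested, and Timp3 at percentile 36. These 9 values are a description with no test between genes. They include counting noise, which is larger for genes with few counts. Expected counts averaged 16.75 for Mmp7 and 168 for Timp1 against 77322 for Timp3, and the part of such noise was not tested.

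**Figure D1:**
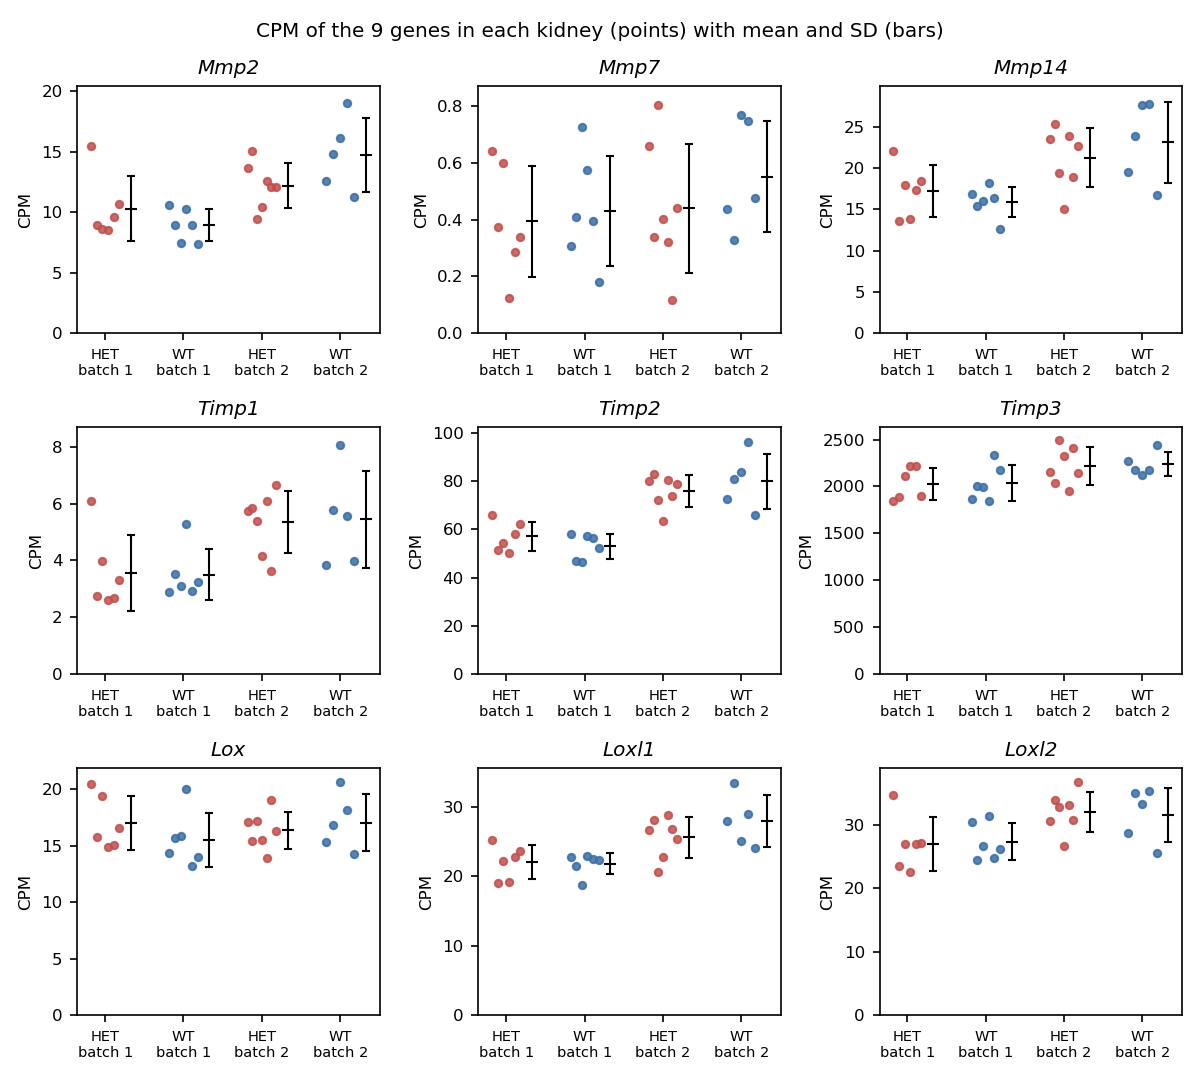
CPM of each of the 9 genes (vertical axis, from 0) in every kidney, by genotype and batch (6 HET and 6 WT in batch 1, 7 HET and 5 WT in batch 2). Points are kidneys, and bars give the mean and SD of each group. HET and WT overlap within both batches in every panel, and the Mmp2 point at 15.5 CPM in HET of batch 1 is HET replicate 1.

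Whether HET kidneys differed from WT kidneys in these genes was first asked for the proteases. In batch 1, Mmp2 ran from 8.56 to 15.5 CPM in HET (median 9.25, n = 6) and from 7.34 to 10.6 CPM in WT (median 8.97, n = 6). In batch 2 it ran from 9.46 to 15.1 CPM in HET (median 12.1, n = 7) and was 12.5, 14.8, 16.1, 19.1 and 11.3 CPM in the 5 WT mice. HET replicate 1 stood alone at the top of batch 1 and WT replicate 10 at the top of batch 2, while the groups overlapped in both. Mmp2 had a log2 fold change, HET over WT by edgeR's quasi-likelihood fit, of 0.21 (SE 0.15, unadjusted p = 0.181) in batch 1. In batch 2 it was -0.29 (SE 0.13, 95% interval -0.58 to -0.0031, unadjusted p = 0.0479, adjusted p = 0.602 in edgeR). An exact two-sided permutation test of its log2 CPM gave p = 0.294 in batch 1 and p = 0.119 in batch 2. Without WT replicate 10 the batch 2 value was -0.18, and without HET replicate 1 that of batch 1 was 0.05. The difference between the batches was -0.48 on the log2 scale (SE 0.21, edgeR interaction term, unadjusted p = 0.0313, adjusted p = 0.595), and -0.56 (adjusted p = 0.729) without the 3 doubted libraries. The interaction had an unadjusted p under 0.05 for 8.2% of all genes and an adjusted one for 0%.

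Mmp14 ran from 13.6 to 22.1 CPM in HET (median 17.7) and from 12.7 to 18.2 CPM in WT (median 16.2) of batch 1. In batch 2 it ran from 15.1 to 25.4 CPM in HET (median 22.7) and was 19.5, 24, 27.7, 27.8 and 16.8 CPM in WT. WT replicates 9 and 10 were the highest kidneys of that batch and HET replicate 1 of batch 1, the latter as for Mmp2. Its log2 fold change was 0.12 (SE 0.11) in batch 1 and -0.14 (SE 0.15) in batch 2. Mmp7 was spread widely in every group, from 0.124 to 0.640 CPM in HET and 0.179 to 0.726 CPM in WT of batch 1, and from 0.118 to 0.803 CPM in HET and 0.328 to 0.769 CPM in WT of batch 2. Its log2 fold change was -0.13 (SE 0.38) in batch 1 and -0.34 (SE 0.35) in batch 2, with 95% intervals from -0.92 to 0.67 and from -1.07 to 0.39.

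Of the inhibitors, Timp1 ran from 2.61 to 6.08 CPM in HET (median 3.02) and from 2.87 to 5.28 CPM in WT (median 3.19) of batch 1. In batch 2 it ran from 3.63 to 6.68 CPM in HET (median 5.74) and was 3.83, 5.77, 8.08, 5.56 and 3.98 CPM in WT. Single kidneys set the top of each group, HET replicate 1 and WT replicate 4 in batch 1 and WT replicate 9 in batch 2. Its log2 fold change was 0.03 (SE 0.21) in batch 1 and -0.04 (SE 0.19) in batch 2. Timp2 ran from 50.4 to 65.9 CPM in HET (median 56.4) and 46.6 to 58.2 CPM in WT (median 54.2) of batch 1, with a log2 fold change of 0.11 (SE 0.07). In batch 2 it ran from 63.7 to 82.8 CPM in HET (median 78.7) and was 72.6, 81.0, 83.8, 96.0 and 66.0 CPM in WT, with a log2 fold change of -0.09 (SE 0.09). Timp3, at 1842 to 2217 CPM in HET and 1849 to 2339.8 CPM in WT of batch 1 and 1952 to 2499.8 CPM in HET and 2119.7 to 2442 CPM in WT of batch 2, had the narrowest intervals. Its log2 fold change was -0.0075 (95% interval -0.14 to 0.12) in batch 1 and -0.03 (-0.16 to 0.10) in batch 2.

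The lysyl oxidases were as close between genotypes. Lox, the founding member of the family, ran from 14.9 to 20.5 CPM in HET and 13.2 to 20.0 CPM in WT of batch 1, and from 13.9 to 19.0 CPM in HET and 14.3 to 20.7 CPM in WT of batch 2. Its log2 fold change was 0.13 (SE 0.10) and -0.08 (SE 0.09). Loxl1 ran from 19.0 to 25.3 CPM in HET and 18.8 to 23 CPM in WT of batch 1, and from 20.7 to 28.8 CPM in HET and 24 to 33.5 CPM in WT of batch 2, with a log2 fold change of 0.01 (SE 0.07) and -0.14 (SE 0.09). Loxl2 ran from 22.6 to 34.7 CPM in HET and 24.5 to 31.4 CPM in WT of batch 1, and from 26.7 to 36.7 CPM in HET and 25.6 to 35.3 CPM in WT of batch 2. Its log2 fold change was -0.02 (SE 0.10) and 0.0059 (SE 0.09).

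None of the 9 genes passed the test. Over all mice with batch as a covariate edgeR called 0 of 9 at an adjusted p under 0.05, against 0% of all genes tested, and 0 of 9 had an unadjusted p under 0.05, against 4.12% of all genes. Within batch 1 it called 0 of 9, against 0% of all genes, and within batch 2 it called 0 of 9, against 0.00557%, with Mmp2 the 1 of 9 at an unadjusted p under 0.05, against 8.28% of all genes. In batch 1, 0 of 9 had such a p, against 2.82%. DESeq2's Wald test and limma on log2(TPM + 1) also called 0 of 9 in each of these comparisons, and so did edgeR without the 3 doubted libraries over all mice and in batch 1. The median log2 fold change of the 9 genes was -0.0041 over all mice, 0.03 in batch 1 and -0.09 in batch 2, beside medians of 0.0098, -0.0012 and 0.00021 over all genes tested. In batch 2, 8 of the 9 values were below 0, against 49.9% of all genes. The 9 values are not separate observations, as the median Pearson r over the 36 pairs of these genes across the kidneys was 0.48. Among pathway lists in batch 2, 11 of 12 other matrix metalloproteinases (median -0.15) and 11 of 11 substrates (median -0.08) were below 0. Of the collagen processing enzymes 8 of 9 were above 0. The remaining pathway lists were more evenly split, such as 7 of 15 ADAM and ADAMTS proteases below 0. Some marker lists also lay mostly below 0 there, with 7 of 7 macrophage markers (median -0.09), 7 of 7 adipose markers (median -0.75), 6 of 7 injured tubule markers (median -0.06) and 5 of 6 podocyte markers. Other lists did not, with 4 of 7 fibroblast and myofibroblast markers and 3 of 6 vascular smooth muscle markers below 0. Acta2 and Tagln are on both of these lists. Urothelium and tubule identity each had 4 of 7 above 0, and neutrophil had 2 of 2 tested above 0. Of all these markers 0 were called. The part of these lists in the values of the 9 genes was not tested.

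Over all mice the 95% intervals bound what a HET effect on each gene could be. They ran from 0.82-fold to 1.15-fold for Mmp2 and from 0.59-fold to 1.23-fold for Mmp7, and were from 0.93-fold to 1.06-fold for Timp3, 0.88-fold to 1.05-fold for Loxl1 and 0.91-fold to 1.10-fold for Loxl2. Their log2 fold changes were -0.04 (SE 0.11), -0.23 (SE 0.26), -0.0099 (SE 0.05), -0.06 (SE 0.06) and 0.0025 (SE 0.07). Mmp14, Timp1, Timp2 and Lox stood at -0.0041 (SE 0.10), 0.0030 (SE 0.15), 0.02 (SE 0.06) and 0.04 (SE 0.07). The lowest adjusted p of the 9 over all mice was 0.997 in edgeR.

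**Figure D2:**
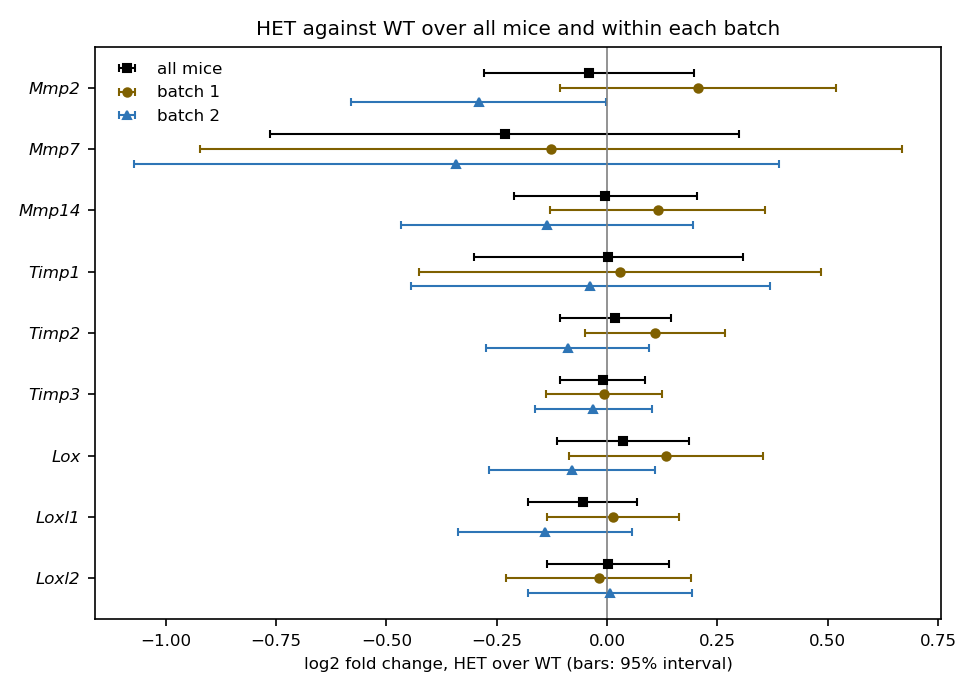
Log2 fold change of HET over WT (horizontal axis) for each of the 9 genes over all 24 mice (squares), in batch 1 (circles) and in batch 2 (triangles), with 95% intervals as bars. The Mmp2 point lies at 0.21 in batch 1 and at -0.29 in batch 2, and Mmp7 has the widest intervals.

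Protease levels were then set against their inhibitors within each kidney, as ratios of TPM, which do not depend on the scale of a library. The Mmp14 to Timp2 ratio, between the activator of proMMP2 and its bridging partner, was the steadiest. It was 0.476 ± 0.0521 (SD, n = 6) in HET and 0.473 ± 0.0540 (n = 6) in WT of batch 1, and 0.456 ± 0.0398 (n = 7) in HET and 0.496 ± 0.0485 (n = 5) in WT of batch 2. The groups overlapped in both batches.

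The Mmp2 to Timp2 ratio was the one in which fewest HET kidneys of batch 2 lay within the range of WT, 1 of 7. There it ran from 0.144 to 0.223 in HET (median 0.189, mean 0.188 ± 0.0257) and was 0.211, 0.223, 0.236, 0.252 and 0.206 in WT (mean 0.226 ± 0.0187). Only HET replicate 8 was above the lowest WT kidney, and HET replicate 10, at 0.205, was just below it. The difference of the mean log2 ratios was -0.27 beside a pooled SD of 0.18. As a ratio of CPM it was -0.20 (pooled SD 0.13), with 1 of 7 HET kidneys within the WT range. With 1 TPM added to each gene it was -0.22 (pooled SD 0.15), with 2 of 7 within that range. In batch 1 the order of the means was the other way, at 0.215 ± 0.0382 in HET and 0.201 ± 0.0253 in WT, a difference of 0.09 beside a pooled SD of 0.22, and 4 of 6 HET kidneys lay within the WT range. Without the 3 doubted libraries the batch 1 difference was 0.17, with 1 of 5 HET kidneys within the WT range, 3 above it and 1 below it. Without HET replicate 1 it was 0.0095. Since these ratios were formed from genes chosen with earlier results known, no p is given for them.

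The other ratios overlapped between genotypes in both batches. Mmp2 to Timp1 was 0.685 ± 0.146 in HET and 0.588 ± 0.121 in WT of batch 1, and 0.531 ± 0.132 and 0.639 ± 0.126 in batch 2. Mmp7 to Timp1 was 0.0796 ± 0.0247 and 0.0930 ± 0.0436 in batch 1, and 0.0610 ± 0.0309 and 0.0784 ± 0.0227 in batch 2. Mmp14 to Timp3 was 0.0181 ± 0.00485 and 0.0163 ± 0.00378 in batch 1, and 0.0215 ± 0.00477 and 0.0236 ± 0.00647 in batch 2. The summed TPM of the 3 proteases over that of the 3 inhibitors, which Timp3 dominates, was 0.0260 ± 0.00714 in HET and 0.0233 ± 0.00502 in WT of batch 1, and 0.0294 ± 0.00575 and 0.0333 ± 0.00868 in batch 2. In each of these but Mmp7 to Timp1 the HET mean was above the WT mean in batch 1 and below it in batch 2, by less than the pooled SD of the log2 ratio.

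**Figure D3:**
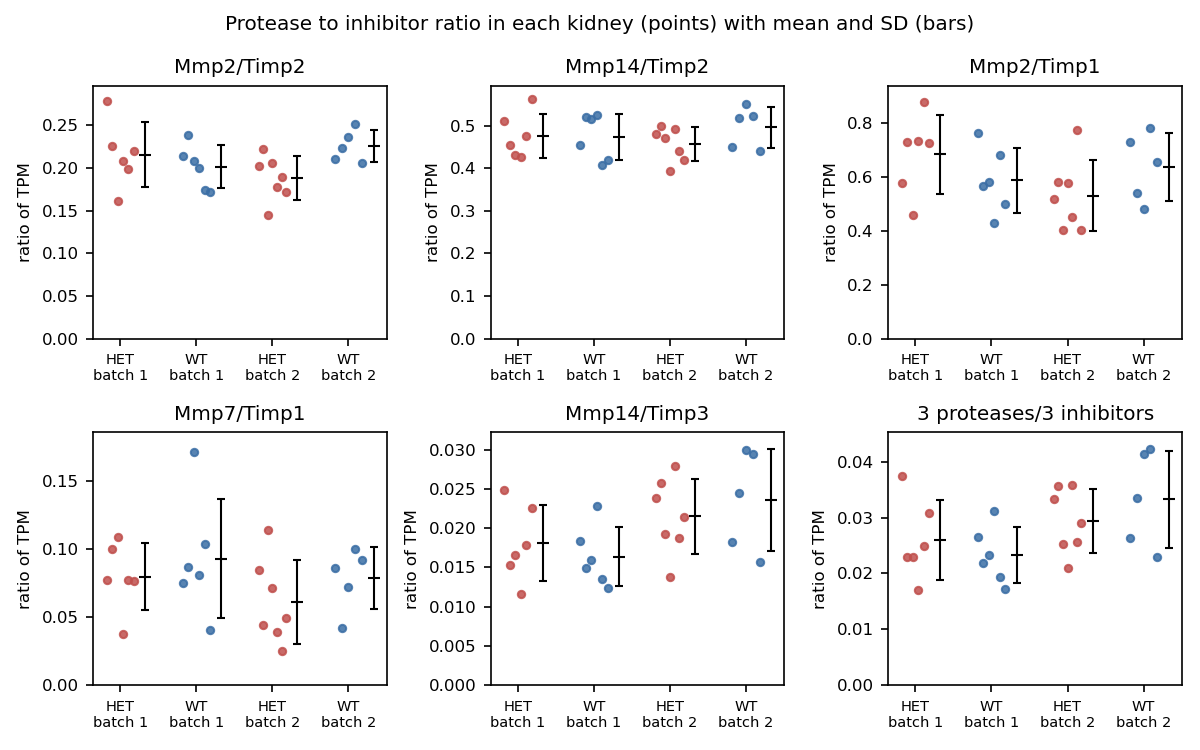
Ratio of protease TPM to inhibitor TPM (vertical axis, from 0) in every kidney for 6 ratios, by genotype and batch, with points for kidneys and bars for the mean and SD. Mmp2/Timp2 in batch 2 is the panel in which 1 of 7 HET kidneys lies within the WT range, and Mmp14/Timp2 stays near 0.47 in all groups.

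The batches differed more than the genotypes. With genotype as a covariate 7 of the 9 genes were higher in batch 2, and none lower, where 32.6% of all genes tested were called higher and 63.5% were called in either direction. Timp1 rose by 0.61 on the log2 scale (SE 0.15, adjusted p = 0.000798), Timp2 by 0.50 (SE 0.06), Mmp2 by 0.47 (SE 0.11) and Mmp14 by 0.41 (SE 0.10). Loxl1 rose by 0.28 (SE 0.06), Loxl2 by 0.23 (SE 0.07) and Timp3 by 0.13 (SE 0.05, adjusted p = 0.0153), all in edgeR. For Timp3 the call was lost without the 3 doubted libraries (0.10, adjusted p = 0.0835). Mmp7 (0.26, SE 0.26, adjusted p = 0.401) and Lox (0.03, SE 0.07, adjusted p = 0.739) did not pass. The median over all genes tested was 0.03, but on log2(TPM + 1) it was 0.69 and limma called all 9 genes higher. Relative to that shift Mmp7 (0.39) was below the median gene and the other 8 above it, from Lox (0.77) to Timp2 (1.33). The 1 TPM added before the log shrinks the shift of every gene of low level, also in that median, so the places of all 9 genes depend on it. The mean of Mmp7 was 0.343 TPM in batch 1 and 0.77 TPM in batch 2. In edgeR Lox was at 0.03, beside the median of 0.03 over all genes tested.

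Several marker lists moved with the same split. Of the macrophage markers 7 of 7 were higher in batch 2, and their summed level was 99.0 to 139 CPM in batch 1 and 128 to 193 CPM in batch 2. The fibroblast and myofibroblast markers had 5 of 7 higher, at 160.1 to 226 CPM and 208 to 308 CPM. The vascular smooth muscle markers, which share Acta2 and Tagln with them, had 5 of 6 higher, at 145 to 199 CPM and 184 to 253 CPM. Of the injured tubule markers 3 of 7 were higher, at 797 to 1582 CPM and 1052 to 2082 CPM, of the urothelium markers 4 of 7, and of the adipose markers 0 of 7. Of 6 neutrophil markers 3 were tested, of which 0 were higher and 1 was lower. Podocyte markers had 4 of 6 higher and 1 lower, and tubule identity markers 2 of 7 higher and 1 lower. Depth also differed between the batches, as given above. The part of any of these in the higher levels of the 7 genes was not tested, and in whole kidney more cells of a type and more RNA per cell cannot be told apart.

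Across the 24 kidneys, most of these proteases, inhibitors and cross-linking enzymes were high in the same mice. Log2 CPM was compared with the mean of each batch and genotype removed. Of 36 pairs, 24 passed at an adjusted p under 0.05 (100000 permutations within batch and genotype, two-sided, adjusted over the 36 pairs), 19 of them positive. All 24 had an absolute r of at least 0.457, a size reached by 7.75% of all 168150291 pairs of the 18339 genes tested, and the median r was 0.48 over the 36 pairs and -0.00025 over all pairs. With each batch of 12 taken alone, 16 pairs passed in batch 1 and 9 in batch 2. All values share the library scaling of each kidney.

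The 3 genes of the proMMP2 activation complex stood together. Mmp14 and Timp2 had r = 0.85 (p = 1e-05, adjusted p = 0.00012) and rho = 0.85 (p = 1e-05), where 1e-05 is the smallest p these permutations can give. The value of r was 0.71 in batch 1, 0.96 in batch 2, and 0.79 without the 2 kidneys farthest from the median of Mmp14. Mmp2 and Timp2 had r = 0.84 (adjusted p = 0.00012 by permutation, rho = 0.87, 0.79 in batch 1 and 0.90 in batch 2, 0.81 without 2 kidneys). Mmp2 and Mmp14 had r = 0.82 (adjusted p = 0.00012 by permutation, rho = 0.85, 0.79 in batch 1 and 0.86 in batch 2, 0.78 without 2 kidneys). Kidneys high in one of the 3 were thus high in the others in both batches.

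Loxl2 followed the same mice, with r = 0.83 for Mmp14 (rho = 0.82), 0.81 for Timp2 (rho = 0.77), 0.76 for Timp1 (rho = 0.74) and 0.73 for Mmp2 (rho = 0.66), each with an adjusted permutation p of 0.00264 or less. Timp1 and Mmp14 had r = 0.75 (rho = 0.80, adjusted permutation p = 0.00096). Timp1 and Lox had r = 0.65 (rho = 0.56, adjusted permutation p = 0.00708), at 0.91 in batch 1 and 0.31 in batch 2, and r = 0.47 without 2 kidneys. Mmp7 passed with Timp1 (r = 0.57, rho = 0.52, adjusted permutation p = 0.0138) and Lox (r = 0.46, rho = 0.60, adjusted permutation p = 0.0455) only. The pair with Timp1 passed in neither batch alone (r = 0.62 and 0.51), and the pair with Lox passed in batch 1 alone (r = 0.73) but not in batch 2 (r = 0.13). The pair with Lox was also lost without the 3 doubted libraries (adjusted permutation p = 0.0868) and with the batch means alone removed (adjusted permutation p = 0.0584). Lox and Loxl1, 2 enzymes of one family, had r = 0.11 (rho = 0.12, adjusted permutation p = 0.611).

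Timp3 was the exception, and its relations depended on the scaling. On TMM-scaled CPM its r was -0.65 with Mmp2, -0.59 with Mmp14, -0.58 with Timp1, -0.57 with Loxl2 and -0.48 with Timp2, the 5 negative pairs that passed. The pair with Timp2 was lost without the 3 doubted libraries (adjusted permutation p = 0.0551). On log2(TPM + 1) the same values were -0.06, 0.14, 0.00061, 0.21 and 0.33, and with library totals in place of TMM they were -0.43, -0.19, -0.22, -0.23 and -0.15, none of them passing. The 19 positive pairs passed on both of those scales.

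**Figure D4:**
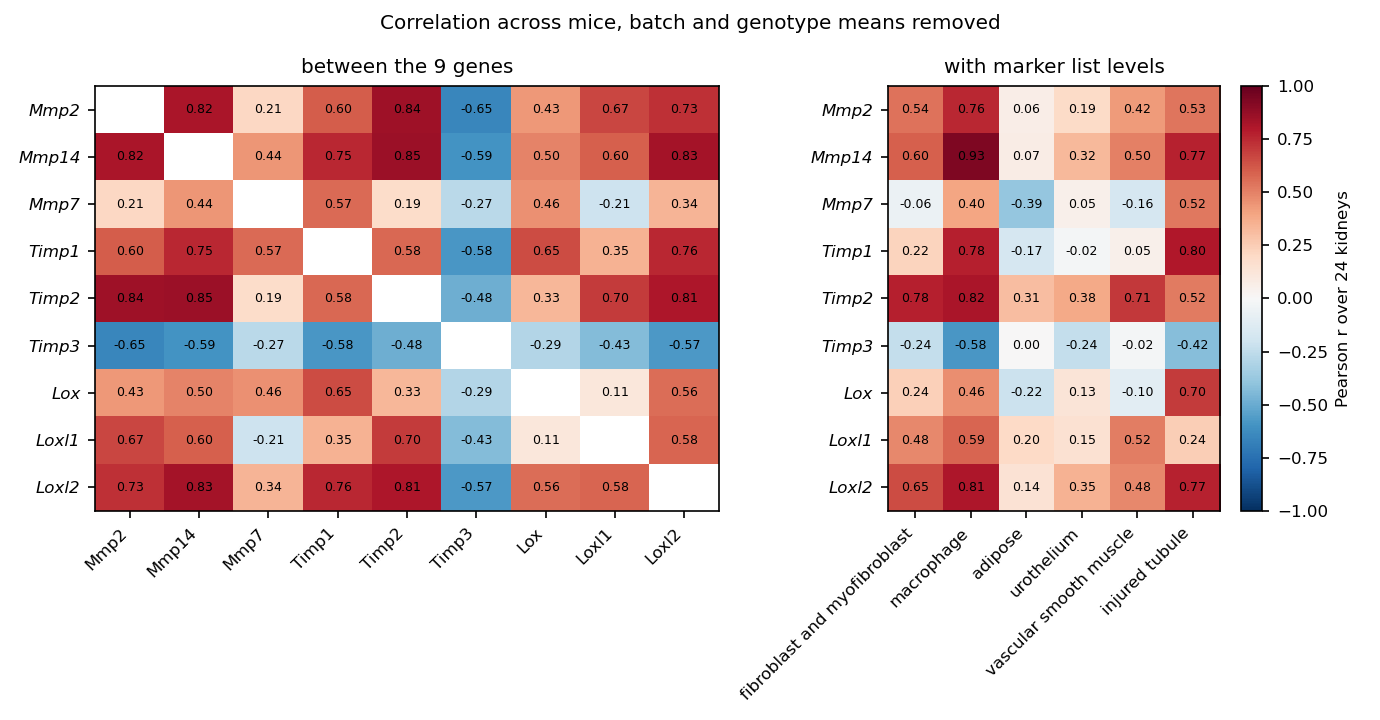
Pearson r across the 24 kidneys, with the mean of each batch and genotype removed from log2 CPM, between the 9 genes (left) and between each gene and the level of 6 marker lists (right). Red is positive and blue negative on the colour scale from -1 to 1. The block of Mmp2, Mmp14, Timp2 and Loxl2 runs from 0.73 to 0.85, and the Timp3 row is negative with the other 8 genes on this scale.

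The level of each gene was set against the mean log2 CPM of 6 marker lists, and 18 of 54 relations passed, 17 of them positive. Their absolute r was at least 0.524, a size reached by 5.22% of the relations of all 18339 genes with the 6 lists. Macrophage markers gave the highest value, with Mmp14 at r = 0.93 (rho = 0.93, p = 1e-05, adjusted p = 0.00054 by permutation). That r was 0.91 in batch 1, 0.95 in batch 2, and 0.92 without the 2 kidneys farthest from the median of Mmp14. The macrophage list also passed with Timp2 (r = 0.82), Loxl2 (r = 0.81), Timp1 (r = 0.78), Mmp2 (r = 0.76) and Loxl1 (r = 0.59). In batch 1 and batch 2 these were 0.68 and 0.92 for Timp2, 0.81 and 0.85 for Loxl2, 0.76 and 0.83 for Timp1, 0.65 and 0.87 for Mmp2 and 0.65 and 0.55 for Loxl1. With Timp3 it gave r = -0.58 on TMM-scaled CPM (-0.30 in batch 1 and -0.83 in batch 2) but 0.12 on log2(TPM + 1). All 7 markers of this list were detected, and their summed level of 99.0 to 193 CPM was above that of Mmp14, at 12.7 to 27.8 CPM.

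Markers of injured tubule, such as Havcr1 and Lcn2, passed with Timp1 (r = 0.80, rho = 0.80, adjusted permutation p = 0.00054, 0.80 in batch 1 and 0.83 in batch 2). They also passed with Mmp14 (r = 0.77), Loxl2 (r = 0.77), Lox (r = 0.70), Mmp2 (r = 0.53) and Mmp7 (r = 0.52), at 0.80 in batch 1 and 0.33 in batch 2 for the last, which was lost without the 3 doubted libraries (adjusted permutation p = 0.0582). The relation with Mmp2 was lost with DESeq2 size factors (adjusted permutation p = 0.0502) and in each batch alone (r = 0.52 and 0.55, adjusted permutation p = 0.263 and 0.180). Fibroblast and myofibroblast markers passed with Timp2 (r = 0.78), Loxl2 (r = 0.65), Mmp14 (r = 0.60) and Mmp2 (r = 0.54). That with Mmp2 was lost without the 3 doubted libraries (adjusted permutation p = 0.0669). The fibroblast values were lower in batch 1 than in batch 2, at 0.61 and 0.92 for Timp2, 0.49 and 0.83 for Loxl2, 0.24 and 0.86 for Mmp14 and 0.27 and 0.82 for Mmp2, and the difference between batches was not tested. Without the 2 kidneys farthest from its median, Mmp14 had r = 0.39 with that list. Vascular smooth muscle markers passed with Timp2 alone (r = 0.71). That list shares Acta2 and Tagln with the fibroblast and myofibroblast list, so the 2 are not separate measures. No relation with the adipose or urothelium lists passed. The part of these cell types in the levels of the 9 genes was not tested.

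**Figure D5:**
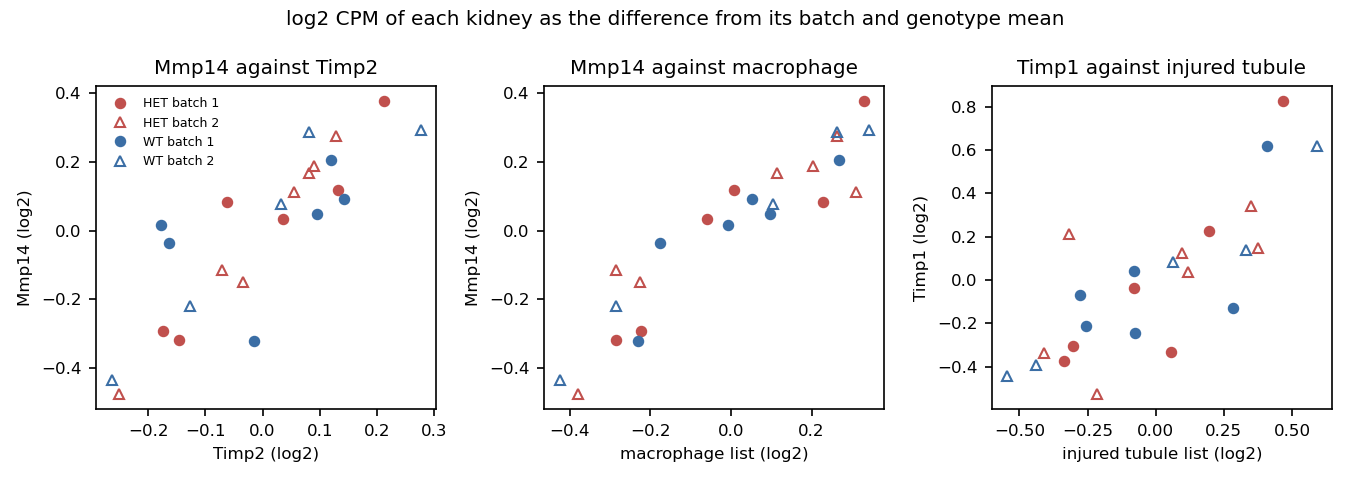
Log2 CPM of each of 24 kidneys as the difference from its batch and genotype mean, for Mmp14 against Timp2 (left), Mmp14 against the macrophage list (middle) and Timp1 against the injured tubule list (right). Red points are HET and blue WT, filled circles batch 1 and open triangles batch 2. The points rise together in all 3 panels, with r of 0.85, 0.93 and 0.80.

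For each gene, the 3 genes with the highest r over the 24 kidneys were named among 15359 compared (15360 for Mmp7), as a description with no p. Mmp2 was nearest to Fn1, which makes fibronectin (r = 0.95), and to Cdh11, a mesenchymal cadherin (0.92), then to Slc7a2, a transporter of cationic amino acids (0.90). Mmp14 was nearest to Lyz2, which makes lysozyme in macrophages (0.93), and to C1qc and C1qa, chains of complement C1q (0.93 and 0.92). The C1q genes are also on the macrophage list. Timp1 was nearest to Havcr1, which makes the tubule injury marker KIM-1 (0.88), then to Cd44, the hyaluronan receptor (0.87), and Aldh1a2, which makes retinoic acid (0.87).

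Timp2 was nearest to Vim, which makes the intermediate filament vimentin (0.95), and to the matricellular genes Smoc2 (0.89) and Sparc (0.89). Loxl2 was nearest to Sparc (0.89), Nckap1l, a regulator of actin in blood cells (0.87), and Vim (0.85). Lox was nearest to Sorbs2 (0.80), Col5a2, a chain of type V collagen (0.77), and Clu, which makes clusterin (0.76). Loxl1 was nearest to Lrp1, an endocytic receptor that takes up proteases with their inhibitors (0.89), Tbc1d2b (0.84) and Emilin1, an elastic fibre glycoprotein (0.84). Timp3 was nearest to Fam107b (0.86), Gm20186 (0.80) and Ahcyl2 (0.80). Mmp7 was nearest to Gm18194 (0.81), Camkk1 (0.76) and Clca3a2 (0.75), a lower likeness for a gene with few counts.

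No gene of the rest of the pathway passed the test with genotype either. Over all mice edgeR called 0 genes in each of 8 further lists, as it called 0% of all genes, and DESeq2 and limma on log2(TPM + 1) also called 0 of all genes. Of 20 other matrix metalloproteinases 12 were tested, with 0 at an unadjusted p under 0.05 and a median log2 fold change of -0.08. Mmp3, or stromelysin, was at 0.17 (SE 0.15), Mmp23 at -0.10 (SE 0.09) and Mmp11 at -0.11 (SE 0.11). Counts of Mmp1a and Mmp1b were 0 in all 24 libraries. Mmp12, the macrophage elastase, had the highest median of these 20 on the CPM scale, at 7.69 CPM (3.15 to 12.6), a scale that does not allow for length.

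Of 8 other inhibitors and regulators 7 were tested, with 0 at an unadjusted p under 0.05. Thbs1, or thrombospondin-1, was at 0.28 (SE 0.13), Bsg, the inducer of metalloproteinases basigin, at 0.05 (SE 0.03) and Furin, the convertase that activates MMP14, at -0.04 (SE 0.03). Timp4 had a median of 0.169 CPM. Of 11 other lysyl oxidases and cofactors, 1 of 11 tested had an unadjusted p under 0.05, which was Loxl4 at 0.19 (SE 0.09, p = 0.0461, adjusted p = 0.997 in edgeR). Bmp1, the proteinase that matures proLOX, was at -0.10 (SE 0.07), Slc31a1, a copper importer, at 0.04 (SE 0.03) and Fbln5, which tethers LOXL1 to elastic fibres, at -0.04 (SE 0.09).

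In the plasminogen system 7 of 8 genes were tested and 0 had an unadjusted p under 0.05. Plat, the tissue-type plasminogen activator, was at 0.09 (SE 0.06) and Plaur, the urokinase receptor, at 0.13 (SE 0.11). Plau, or urokinase, had the highest level of that list, at a mean of 189 TPM, and was at 0.04 (SE 0.08). Of 15 ADAM and ADAMTS proteases 0 had an unadjusted p under 0.05, with Adamts4, an aggrecanase, at 0.21 (SE 0.14), Adam15 at -0.04 (SE 0.04), Adamts1 at 0.13 (SE 0.15) and Adam9 at 0.0020 (SE 0.03). Of 8 cathepsins and meprins 0 did so, with Ctsk at -0.12 (SE 0.10), Ctsb at 0.03 (SE 0.03), Ctsz at -0.03 (SE 0.03) and the brush border protease Mep1a, at a mean of 551 TPM, at 0.02 (SE 0.04).

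Of 10 processing enzymes 9 were tested, and 1 had an unadjusted p under 0.05, which was Pcolce, the enhancer of procollagen C-proteinase, at 0.09 (SE 0.04, p = 0.0491, adjusted p = 0.997 in edgeR). P4ha1 was at 0.17 (SE 0.10) and the collagen chaperone gene Serpinh1 at 0.12 (SE 0.07). Of 11 substrates 1 had an unadjusted p under 0.05, which was Col4a3, a type IV collagen chain of the glomerular basement membrane, at -0.09 (SE 0.04, p = 0.0493, adjusted p = 0.997 in edgeR). Col4a4, its partner chain, was at -0.07 (SE 0.04), Col3a1 at 0.05 (SE 0.11) and the proteoglycan gene Bgn at 0.02 (SE 0.06). Between batches, where 32.6% of all genes were called higher, all 8 lists held called genes. Of the other metalloproteinases 7 of 12 tested were higher and 2 lower, of the other inhibitors and regulators 1 of 7 was higher and 0 lower, and of the other lysyl oxidases and cofactors 8 of 11 were higher and 1 lower. Of the plasminogen system 3 of 7 were higher and 0 lower, and of the ADAM and ADAMTS proteases 6 of 15 were higher and 3 lower. Of the cathepsins and meprins 8 of 8 were higher, of the collagen processing enzymes 7 of 9 were higher and 0 lower, and of the substrates 7 of 11 were higher and 1 lower.

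On simulated counts with the real means and library sizes, the same test recovered 60% of genes changed by 25%, 92% of genes changed by 50% and 96% of genes changed 2-fold over all mice (18015 genes run). Of genes changed by 25% it recovered 30% within batch 1 (18043 genes run) and 36% within batch 2 (17516 genes run), and of genes changed by 50% it recovered 78% and 80%. The changed genes were drawn only from genes of higher level than Mmp7, which had a mean of 0.45 CPM, so these shares do not cover it. They are shares over genes drawn at random and were not computed for the other members. The SD of log2 CPM was 0.38 for Timp1, 0.27 for Mmp2 and 0.26 for Mmp14, above the median of 0.16 over all genes tested. For the remaining members it was 0.12 (Timp3) to 0.19 (Lox). The simulation took all labels as right, also those of the 3 doubted libraries.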

How the data were processed

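Bulk RNA-seq was made from 24 kidneys, with polyadenylated RNA libraries (KAPA mRNA HyperPrep, per the labels' protocols). The submitters' processing notes name fastp, STAR, featureCounts and the mouse build GRCm38. The authors deposited expected counts per gene, of which 11.8% to 15.4% of genes per library were not whole, and the same genes as TPM and FPKM. The deposited FPKM summed to 1417698 to 1752387 in batch 1 and 693457 to 751757 in batch 2, so TPM levels were compared within a batch only. Columns that match no sample numbered 0.

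Expected counts were rounded, filtered with filterByExpr (minimum count 10), scaled by TMM and tested with edgeR 4.0.16 in R 4.3.3, genotype with batch as a covariate or within a batch, with Benjamini-Hochberg adjustment over all genes tested. Calls are at an adjusted p under 0.05. DESeq2 1.42.0 and limma 3.58.1 on log2(TPM + 1) were alternatives. CPM were TMM-scaled, and log2 CPM used a prior count of 2. Correlations used log2 CPM less the mean of each batch and genotype. Of 55487 gene IDs, 55141 were found in GENCODE M21. Promoter sequences of 5 of the 9 genes were taken from RefSeq. Entries on chromosome 18, where Lox lies, were left out. The edgeR tests of genotype, over all mice and in each batch, and the permutation test of correlations were tested on simulated data. The labels do not say whether mice of a group were littermates. The p-values set a difference or a correlation against the spread between these kidneys, each taken as independent.

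The 9 genes and all lists were chosen with earlier results of these data known. Of each pathway list the text names the 3 genes of at least 1 CPM with the lowest p between genotypes and the gene of highest TPM. Timp4, Mmp12, Mmp1a and Mmp1b were named after their values were seen. A gene that this rule names in the plasminogen list is not reported here.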

Additional observations from a re-analysis of the deposited data

Results flagged for a closer look

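Each group of 5 to 7 kidneys was searched for a kidney far from the rest by Dixon's test, for the 9 genes and the 6 ratios. Of 60 groups 4 held one, and chance gives about 1 in 20 groups. Mmp2 stood at 15.5 CPM in HET replicate 1, where the other HET kidneys of batch 1 had 8.56 to 10.7 CPM. Timp1 stood at 5.28 CPM in WT replicate 4, where the other WT kidneys of batch 1 had 2.87 to 3.52 CPM. Loxl1 stood at 18.8 CPM in WT replicate 3, below the 21.5 to 23 CPM of the other WT kidneys of that batch. The Mmp7 to Timp1 ratio of TPM was 0.0374 in HET replicate 4, below the 0.0767 to 0.108 of the other HET kidneys of batch 1.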

How the results depend on the processing

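The count of the 9 genes called between genotypes was 0 under every alternative run. Near 0, signs of single values changed. Over all mice, without a filter on low counts Timp1 was at -0.0080 and Loxl2 at -0.0083, with limma on log2(TPM + 1) Timp1 at -0.050, Lox at -0.013 and Loxl2 at -0.085, without a batch covariate Mmp14 at 0.016 and Timp3 at 0.00099, and without the 3 doubted libraries Timp1 at -0.030, Timp2 at -0.022 and Loxl2 at -0.0070. In batch 1 Timp3 was at 0.064 with limma and Timp1 at -0.011 without the doubted libraries, and in batch 2 Loxl2 was at -0.16 with limma, where the median of all genes was -0.11. Leaving out 1 kidney moved the log2 fold change over all mice from -0.14 to 0.019 for Mmp2, -0.061 to 0.039 for Mmp14, -0.11 to 0.10 for Timp1, -0.019 to 0.051 for Timp2, -0.035 to 0.011 for Timp3, -0.0098 to 0.080 for Lox and -0.049 to 0.021 for Loxl2. In batch 1 it moved Mmp7 from -0.32 to 0.086, Timp1 from -0.19 to 0.19, Timp3 from -0.035 to 0.036, Loxl1 from -0.028 to 0.053 and Loxl2 from -0.10 to 0.029. In batch 2 it moved Timp1 from -0.14 to 0.15, Timp3 from -0.061 to 0.00036, Lox from -0.14 to 0.00048 and Loxl2 from -0.062 to 0.052, and between batches Lox from -0.0087 to 0.057. Genes called among all tested numbered 2 over all mice without the doubted libraries. In batch 1 they numbered 1 without the filter, 1 with DESeq2 and 2 without the doubted libraries, and in batch 2 3 without the filter, 27 with DESeq2, 0 with limma and 1 to 3 with 1 kidney left out. On log2(TPM + 1) the r of Timp3 was 0.14 with Mmp14, 0.00061 with Timp1, 0.33 with Timp2, 0.21 with Loxl2 and 0.12 with the macrophage list. Pairs that passed numbered 9 in batch 2 alone, and relations with marker lists 9 in batch 1 alone and 30 on log2(TPM + 1). The causes were not tested. No paired analysis was possible because replicate numbers were given in accession order and pair no mice. Mmp7 rests on 4 to 40 counts per library, which limits its precision.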
